A study of Mus musculus with 25 samples.

Results

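The pentose phosphate and NADPH supply enzymes were followed as 9 genes, G6pdx, Pgls, Pgd, H6pd, Rpia, Rpe, Tkt, Taldo1 and Idh1, in perigonadal white adipose tissue (pgWAT). They were chosen by name as the enzymes of the pathway plus Idh1, and every gene probe carrying one of those names on the arrays was taken, which gave 20 probes out of 40561 and 9 genes out of 26420. RNA from 25 male C57BL6/J mice was hybridised, 1 mouse per 1-colour array, in 4 groups: ChREBPβ WT (n = 7), ChREBPβ KO (n = 6), total ChREBP WT (n = 7) and total ChREBP KO (n = 5). ChREBP is the glucose-responsive transcription factor encoded by Mlxipl. The ChREBPβ KO line lacks Mlxipl exon 1b, the first exon of the β isoform, through CRISPR/Cas9 deletion in all tissues, and the total ChREBP KO line lacks both the α and the β isoform. Each line had its own WT group, so that the WT groups differ by line. The ChREBPβ WT mice were littermates of the KO mice, and whether the total ChREBP WT mice were was not given in the sources used here. All mice were fasted for 24 h and then refed for 18 h with food and 20% glucose in the drinking water. Age was not given in the sources used here.

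The pentose phosphate pathway branches from glycolysis at glucose 6-phosphate. Its oxidative arm oxidises glucose 6-phosphate to ribulose 5-phosphate and reduces NADP+ to NADPH, the reductant of fatty acid and cholesterol synthesis and of glutathione recycling. Its non-oxidative arm interconverts the pentose phosphates with the glycolytic intermediates fructose 6-phosphate and glyceraldehyde 3-phosphate, and its steps are reversible. In adipose tissue NADPH from this pathway, from malic enzyme and from cytosolic isocitrate dehydrogenase serves de novo lipogenesis, and xylulose 5-phosphate, an intermediate of the pathway, has long been studied as a glucose signal upstream of ChREBP.

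The brightest Mlxipl probe ranged from 15.74 to 16.24 in total ChREBP WT and from 14.07 to 14.29 in total ChREBP KO, a difference of -1.77 on the log2 scale (limma, adjusted p = 1.11e-08), and the other Mlxipl probes differed by -0.66 (adjusted p = 0.00103) and 0.08 (adjusted p = 0.695). In the ChREBPβ line the brightest probe ranged from 14.72 to 15.46 in WT and from 14.02 to 14.64 in KO, without overlap, a difference of -0.74 (95% confidence interval -1.01 to -0.47) that did not pass (adjusted p = 0.116), and the other probes differed by -0.47 (adjusted p = 0.255) and -0.06 (adjusted p = 0.896). The 3 Mlxipl probes were not assigned to exons, so whether any of them reads the deleted exon 1b was not checked. The part of Mlxipl deleted in the total ChREBP KO line was not given in the sources used here. The 10 adipocyte markers were well above background on every array, with a mean level of 16.01 to 16.28 in ChREBPβ WT, 16.12 to 16.42 in ChREBPβ KO, 16.00 to 16.31 in total ChREBP WT and 16.34 to 16.38 in total ChREBP KO. The last lay above every total ChREBP WT array, 2 of the 10 markers passed (Plin1 at 0.43 and Cidec at 0.39) and the list median was 0.15. The part of this shift in the differences of the enzymes was not tested. Markers of liver moved with the groups: the mean of 12 liver markers ranged from 13.03 to 16.18 in ChREBPβ WT, 11.72 to 15.70 in ChREBPβ KO, 8.77 to 13.74 in total ChREBP WT and 8.46 to 9.50 in total ChREBP KO. All 12 of them were well above background on every ChREBPβ array, 11 on every total ChREBP WT array and 9 on every total ChREBP KO array. The mean of 4 epididymis markers reached 10.14 in total ChREBP WT replicate 2, against at most 6.62 in ChREBPβ WT, and this array also had the highest liver marker mean of its group. The counts of members called in comparisons with total ChREBP WT are given also without the arrays of that group that were rich in liver transcripts. The comparison of total ChREBP WT with ChREBPβ KO was not refitted in this way. In this bulk tissue, fewer cells of a type and less RNA per cell cannot be told apart.

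All 20 probes were well above background on all 25 arrays, so none of the 9 genes was lost to detection. Levels are log2 intensities after the authors' quantile normalisation, and an increase of 1 is a doubling of the signal. They compare arrays for the same probe, since intensities of different probes are not on a common scale. Each gene is described by its brightest probe unless stated, a difference was called at an adjusted p under 0.05 over all 40561 probes, and nothing in the sources says more of the replicates than that each was a separate mouse.

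**Figure D1:**
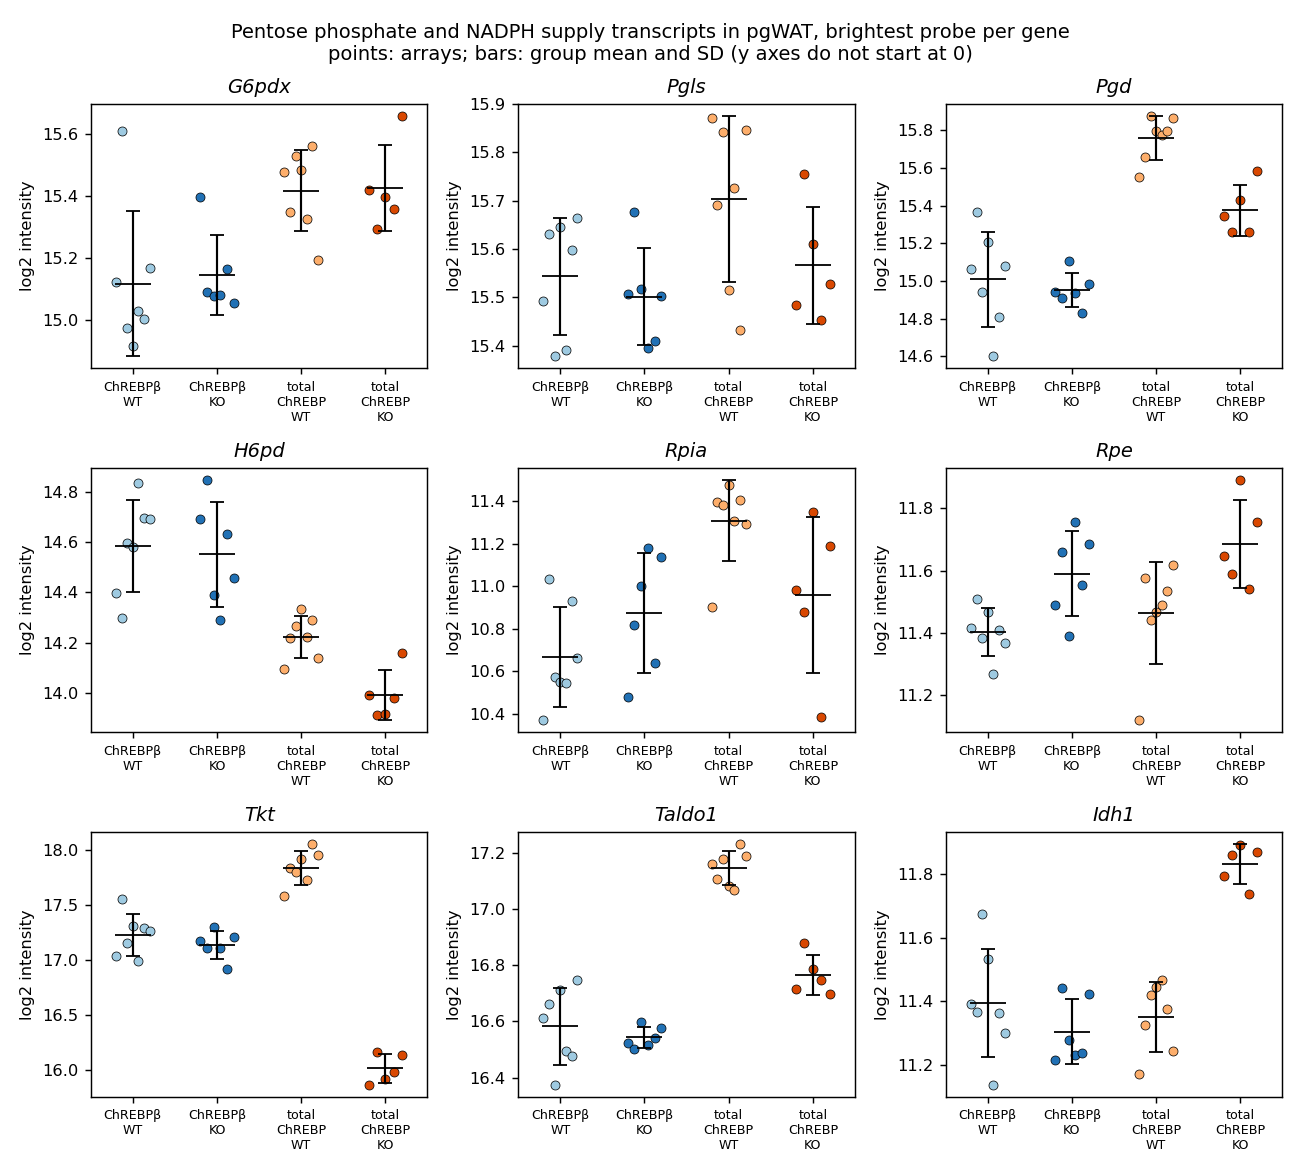
Level of each of the 9 transcripts in the 25 arrays, 1 panel per gene and 1 point per array, with the 4 groups along the x axis and log2 intensity on the y axis (not starting at 0). Horizontal bars are group means and error bars the SD. The 5 total ChREBP KO arrays lie apart from total ChREBP WT for Tkt and Taldo1 (lower) and Idh1 (higher), and the ChREBPβ KO arrays overlap ChREBPβ WT in each panel.

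In total ChREBP KO mice, 4 of the 9 transcripts changed against total ChREBP WT. Tkt, Taldo1 and Pgd were lower and Idh1 was higher, and the change of Tkt was the largest of the 9. The background was 9.25% of the 26420 genes called in this comparison, 3.63% lower and 5.62% higher. Of the 9 transcripts, 3 (Tkt, Taldo1, Idh1) had groups with no overlap, against 7.48% of all genes. The median difference was -0.23 over the 9 transcripts and 0.02 over all genes.

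Tkt encodes transketolase, the thiamine diphosphate enzyme that moves a 2-carbon unit between sugar phosphates in the non-oxidative arm. Its brightest probe covers the end of the coding sequence at mm9 chr14:31386641-31386700 on the plus strand. The first 58 of its 60 bases, up to the stop codon, are shown because the difference of 3.56-fold was read with it, with the stop codon in capitals.
Tkt: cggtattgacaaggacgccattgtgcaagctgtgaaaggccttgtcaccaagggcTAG
The total ChREBP KO arrays read 15.87, 16.17, 15.92, 15.98 and 16.14, and total ChREBP WT had a lowest, median and highest level of 17.58, 17.83 and 18.05. Every total ChREBP KO array was therefore below every total ChREBP WT array. The mean was 16.02 ± 0.13 (SD, n = 5) in total ChREBP KO and 17.84 ± 0.16 (SD, n = 7) in total ChREBP WT. The fitted difference was -1.83 (SE 0.091, 95% confidence interval -2.02 to -1.64, limma, adjusted p = 2.17e-11). Taken batch by batch, it was -1.78, -1.91, -1.75 and -1.89 in the 4 washes. Before normalisation the median spot intensity lay between 57790 and 70616 in total ChREBP KO and between 212920 and 319798 in total ChREBP WT.

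Both other Tkt probes are drawn from Ensembl transcripts and lie upstream at mm9 chr14:31375465-31375524 and chr14:31361653-31361712. They were dim, near 6 to 8 on the log2 scale. The first read 5.79, 5.82, 5.73, 5.34 and 6.15 in total ChREBP KO against 7.58 to 8.48 in total ChREBP WT, a 4.63-fold lower signal (adjusted p = 6.74e-08). The second differed by -0.34 (adjusted p = 0.0255), with overlapping groups of 5.80 to 6.26 and 6.12 to 6.71. All 3 Tkt probes thus passed in the same direction, with sizes from 1.27-fold to 4.63-fold.

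Taldo1 encodes transaldolase, which transfers a 3-carbon dihydroxyacetone unit and completes the link back to glycolysis. The 5 total ChREBP KO arrays read 16.71, 16.88, 16.79, 16.75 and 16.70, all below the total ChREBP WT arrays, whose lowest, median and highest levels were 17.07, 17.16 and 17.23. The difference was -0.38 (SE 0.061, 95% confidence interval -0.51 to -0.26, adjusted p = 0.000188), a 1.30-fold lower level. Within the wash batches it was -0.32, -0.32, -0.45 and -0.46. The other Taldo1 probe spans 175 bases of mm9 (chr7:148587650-148587824, plus strand) with 60 bases of sequence and so crosses an intron, which ties its signal to spliced transcript.
Taldo1: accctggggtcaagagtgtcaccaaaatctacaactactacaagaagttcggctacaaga
On this probe, too, the groups did not overlap, with 14.53 to 14.70 in total ChREBP KO and 14.99 to 15.33 in total ChREBP WT, and the difference was -0.47 (adjusted p = 0.00931).

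Rpia and Rpe feed the non-oxidative arm from ribulose 5-phosphate, Rpia as the isomerase that makes ribose 5-phosphate and Rpe as the epimerase that makes xylulose 5-phosphate. Neither passed. Rpia read 10.98, 10.88, 11.35, 10.39 and 11.19 in total ChREBP KO and 10.90, 11.38 and 11.48 as lowest, median and highest in total ChREBP WT, a difference of -0.35 (95% confidence interval -0.64 to -0.05, adjusted p = 0.154). The within-batch values of Rpia were uneven, at -0.80, -0.05, -0.17 and -0.11, and the difference was -0.23 (adjusted p = 0.401) without total ChREBP KO replicate 4, -0.41 (adjusted p = 0.0849) without total ChREBP WT replicate 2 and -0.53 (adjusted p = 0.302) without the total ChREBP WT arrays rich in liver transcripts. Rpe read 11.65, 11.59, 11.89, 11.54 and 11.76 in total ChREBP KO and 11.12, 11.49 and 11.62 in total ChREBP WT, a difference of 0.22 (95% confidence interval 0.07 to 0.37, adjusted p = 0.0563), and the alternatives moved it both ways. It was 0.26 (adjusted p = 0.0197) without total ChREBP WT replicate 8, 0.17 (adjusted p = 0.0804) without replicate 2, 0.15 (adjusted p = 0.329) with the liver marker mean in the fit and 0.09 (adjusted p = 0.839) without the arrays rich in liver transcripts. The sign of Rpe was thus opposite to those of Tkt and Taldo1, and its 3 probes all had a difference above 0.

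In the oxidative arm, 1 of 4 transcripts passed. Pgd encodes 6-phosphogluconate dehydrogenase, the second NADPH-forming step. It read 15.34, 15.26, 15.43, 15.26 and 15.58 in total ChREBP KO and 15.55, 15.79 and 15.88 as lowest, median and highest in total ChREBP WT. The ranges touched at 1 array of each group. The difference was -0.40 (SE 0.098, 95% confidence interval -0.60 to -0.19, adjusted p = 0.0122), and the other Pgd probes differed by -0.43 (adjusted p = 0.0173) and -0.33 (adjusted p = 0.0802). Within the wash batches the brightest probe differed by -0.58, -0.23, -0.20 and -0.36.

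G6pdx encodes glucose-6-phosphate dehydrogenase, the first and committed step. Its level did not pass between the total ChREBP groups and their ranges overlapped, with 15.42, 15.29, 15.40, 15.36 and 15.66 in total ChREBP KO and 15.19, 15.48 and 15.56 as lowest, median and highest in total ChREBP WT. The difference of 0.0039 had a 95% confidence interval of -0.21 to 0.21 (adjusted p = 0.992), so a change of the size of Pgd (-0.40) lies outside the interval. G6pdx has a single probe here. Its sequence and those for the intronless copy G6pd2 shared a run of at most 7 bases, and none of the 20 probes shared 20 bases in a row with a probe of another gene.

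Pgls encodes 6-phosphogluconolactonase, which opens the lactone between both dehydrogenases, and H6pd encodes the enzyme that does the G6pdx and Pgls steps inside the endoplasmic reticulum. Pgls read 15.49, 15.76, 15.61, 15.45 and 15.53 in total ChREBP KO against 15.43, 15.73 and 15.87 as lowest, median and highest in total ChREBP WT, a difference of -0.15 (95% confidence interval -0.31 to 0.02, adjusted p = 0.342). One of its other probes passed, at -0.31 (adjusted p = 0.0351), and the last differed by -0.06 (adjusted p = 0.849), so the 3 Pgls probes did not give the same call. H6pd read 13.99, 13.91, 13.91, 13.98 and 14.16 against 14.09, 14.22 and 14.33, a difference of -0.23 (95% confidence interval -0.44 to -0.03, adjusted p = 0.170).

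Idh1 encodes the cytosolic NADP-dependent isocitrate dehydrogenase, which makes NADPH outside the pentose phosphate pathway. Its brightest probe lies at mm9 chr1:65206035-65206094 on the minus strand, again over the end of the coding sequence. Its first 56 bases, with the stop codon in capitals, are shown as those of the 1 member that rose.
Idh1: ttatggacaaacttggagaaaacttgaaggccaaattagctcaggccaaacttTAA
The total ChREBP KO arrays read 11.80, 11.86, 11.89, 11.74 and 11.87, all above the total ChREBP WT arrays, whose lowest, median and highest levels were 11.17, 11.38 and 11.47. The difference was 0.47 (SE 0.070, 95% confidence interval 0.32 to 0.61, adjusted p = 0.000104), a 1.38-fold higher level, and 0.37, 0.57, 0.45 and 0.59 within the wash batches. The other Idh1 probe differed by 0.44 (adjusted p = 0.0876).

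Over all 20 probes, 9 passed in total ChREBP KO, 8 lower and 1 higher, and the probes of a gene had the same sign in all 7 genes with more than 1 probe. Several of the 9 are probes of the same gene, and the share of all probes called in this comparison is not given here. The number of members called moved when total ChREBP WT arrays rich in liver transcripts were left out. Without the 5 total ChREBP WT arrays whose liver marker mean was above 9.50, the highest of total ChREBP KO, 2 WT arrays remained and 2 members passed: Tkt at -1.95 (adjusted p = 5.80e-07) and Idh1 at 0.46 (adjusted p = 0.0395). Taldo1 was then at -0.36 (adjusted p = 0.0687) and Pgd at -0.51 (adjusted p = 0.115). The share of all genes called in this fit is not given here, so its count of members has no background beside it.

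**Figure D2:**
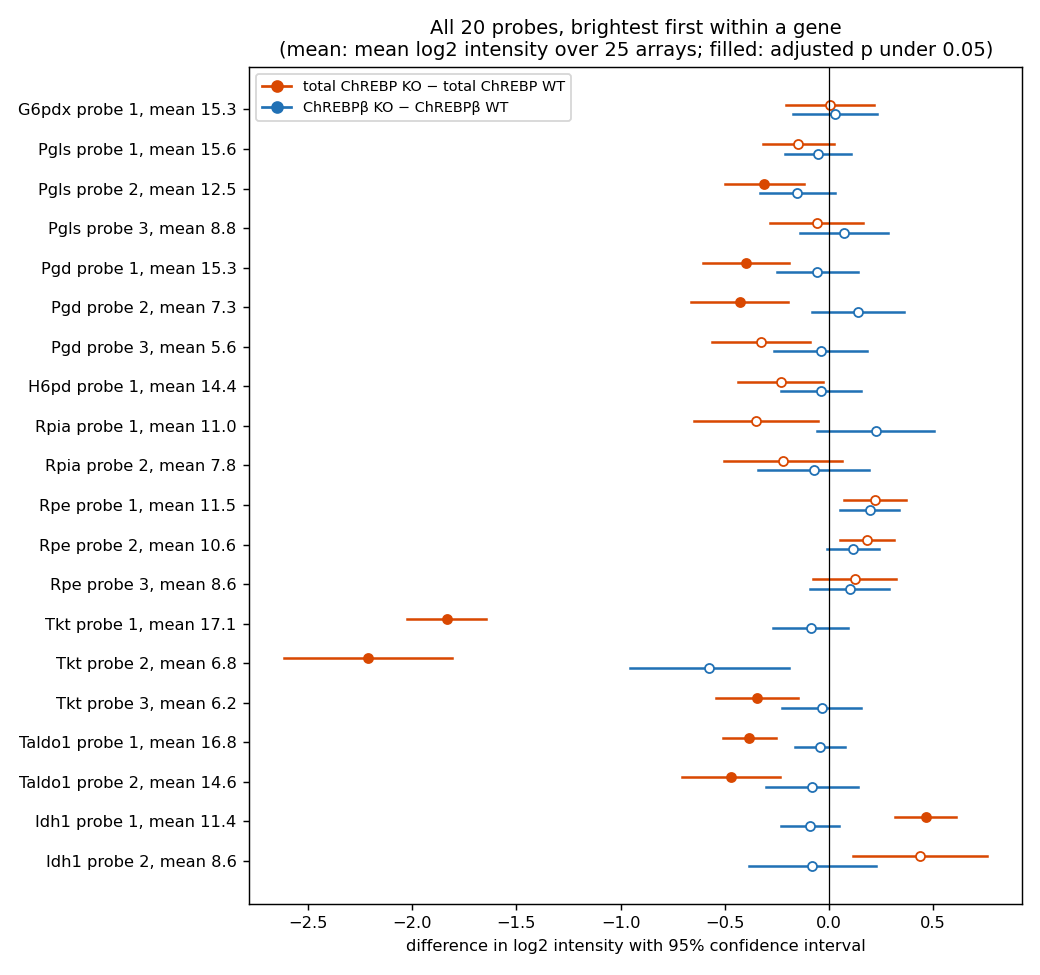
Difference in log2 intensity (x axis) with its 95% confidence interval for each of the 20 probes (y axis, brightest first within a gene), for total ChREBP KO minus total ChREBP WT (orange) and ChREBPβ KO minus ChREBPβ WT (blue). Filled points passed an adjusted p of 0.05. In orange, 9 probes passed, led by Tkt at -2.21 and -1.83, and in blue 0 passed.

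In ChREBPβ KO mice, 0 of the 9 transcripts and 0 of the 20 probes passed against ChREBPβ WT. The background was 0% of the 26420 genes. At an unadjusted p under 0.05, 1 of the 9 passed (Rpe), against 9.45% of all genes. The differences of the 9 ranged from -0.09 (Idh1) to 0.22 (Rpia), and their 95% confidence intervals together spanned -0.27 to 0.51. All 12 liver markers had a difference below 0 in this comparison, with a median of -1.29, and 0 of them passed. With the liver marker mean in the fit, 0 of the 9 transcripts passed.

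For the members that changed in total ChREBP KO, the ChREBPβ groups were close. Tkt had a lowest, median and highest level of 16.92, 17.14 and 17.30 in ChREBPβ KO and 16.99, 17.26 and 17.55 in ChREBPβ WT. The difference was -0.09 (95% confidence interval -0.27 to 0.09, adjusted p = 0.835), so the interval does not reach the -1.83 of total ChREBP KO. The dim Tkt probe at chr14:31375465-31375524 differed by -0.57 (95% confidence interval -0.96 to -0.19, adjusted p = 0.371) with ranges of 5.43 to 6.68 and 6.47 to 7.38. The third Tkt probe, also dim, differed by -0.03 (adjusted p = 0.957). Thus the 3 Tkt probes were not all alike in size in the ChREBPβ comparison, and none passed.

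Taldo1 lay at 16.50, 16.53 and 16.60 in ChREBPβ KO and 16.37, 16.61 and 16.75 in ChREBPβ WT, a difference of -0.04 (95% confidence interval -0.16 to 0.08). Idh1 lay at 11.21, 11.26 and 11.44 against 11.14, 11.37 and 11.68, a difference of -0.09 (95% confidence interval -0.23 to 0.05). Pgd lay at 14.83, 14.94 and 15.11 against 14.60, 15.06 and 15.36. For each of these genes the ChREBPβ KO arrays fell within the range of the ChREBPβ WT arrays or overlapped it. G6pdx (15.05, 15.09 and 15.40 against 14.91, 15.03 and 15.61), Pgls (15.40, 15.50 and 15.68 against 15.38, 15.60 and 15.66) and H6pd (14.29, 14.54 and 14.85 against 14.30, 14.60 and 14.84) overlapped too. Rpia read 10.48, 10.91 and 11.18 against 10.37, 10.57 and 11.04. Rpe read 11.39, 11.61 and 11.76 against 11.27, 11.41 and 11.51, a difference of 0.20 (95% confidence interval 0.06 to 0.34, adjusted p = 0.402), similar in size to the 0.22 of total ChREBP KO, which did not pass either.

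Whether both deletions differed in effect was tested as the difference of the differences. It passed for 3 of the 9 transcripts, with a background of 3.47%. Tkt had -1.75 (SE 0.125, 95% confidence interval -2.01 to -1.49, adjusted p = 2.02e-08), Idh1 had 0.55 (SE 0.097, 95% confidence interval 0.35 to 0.76, adjusted p = 0.00116) and Taldo1 had -0.34 (SE 0.084, 95% confidence interval -0.51 to -0.17, adjusted p = 0.0245). The call of Taldo1 rested on single arrays: without total ChREBP KO replicate 7 its adjusted p was 0.0518 and without replicate 1 it was 0.0713. Without the 5 total ChREBP WT arrays rich in liver transcripts, 1 member passed, Tkt at -1.86 (adjusted p = 1.90e-05), with Idh1 at 0.55 (adjusted p = 0.0559) and Taldo1 at -0.31 (adjusted p = 0.298). For that fit, too, the share of all genes called is not given here. Pgd, at -0.34 (adjusted p = 0.238), was not shown to respond differently to the deletions, although 1 of its dim probes passed at -0.57 (adjusted p = 0.0433). Rpia had -0.57 (95% confidence interval -0.98 to -0.17, adjusted p = 0.144).

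The WT mice of both lines differed in 6 of the 9 transcripts. Pgd, Rpia, Tkt, Taldo1 and G6pdx had the higher level in the total ChREBP WT mice and H6pd the lower. The background was 22.0% of all genes, 13.5% higher and 8.51% lower, and the median was 0.30 over the 9 transcripts and 0.04 over all genes. Non-overlapping groups were seen for Pgd, Tkt and Taldo1, 3 of the 9, against 5.38% of all genes. Pgd differed most, by 0.75 (95% confidence interval 0.56 to 0.94, adjusted p = 1.27e-05), a 1.68-fold higher level. Tkt differed by 0.61 (adjusted p = 4.25e-05) and Taldo1 by 0.56 (adjusted p = 1.60e-06). Rpia differed by 0.64 (adjusted p = 0.00126) and H6pd by -0.36 (adjusted p = 0.00552).

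The G6pdx difference of 0.30 (adjusted p = 0.0231) was uneven, at 0.56, -0.26, 0.38 and 0.24 within the wash batches, and it no longer passed when any of 5 arrays was left out: ChREBPβ WT replicate 3 (0.28, adjusted p = 0.0524), 4 (0.27, adjusted p = 0.0560) or 7 (0.27, adjusted p = 0.0546), or total ChREBP WT replicate 4 (0.28, adjusted p = 0.0559) or 7 (0.28, adjusted p = 0.0537). Pgls (0.16, adjusted p = 0.128), Rpe (0.06, adjusted p = 0.545) and Idh1 (-0.05, adjusted p = 0.658) did not pass. The lines differ in origin, so line and any rearing difference between the colonies cannot be told apart here.

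**Figure D3:**
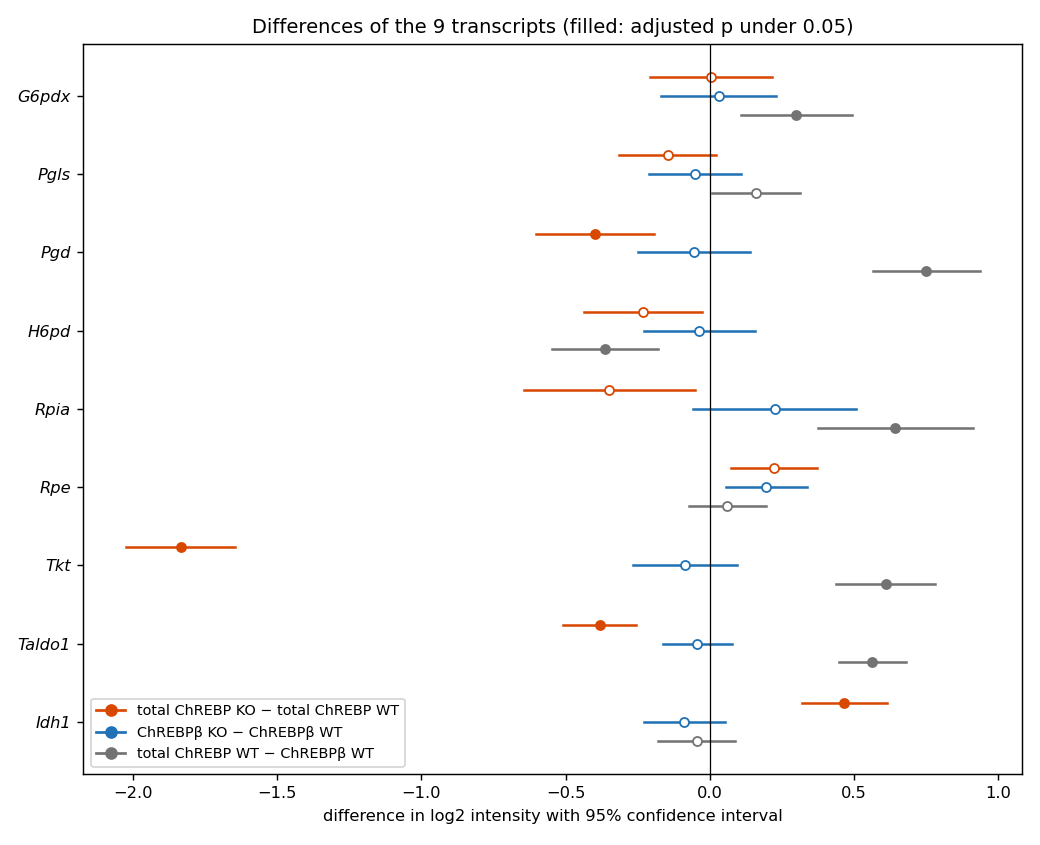
Difference in log2 intensity (x axis) with its 95% confidence interval for the brightest probe of each of the 9 genes (y axis), for total ChREBP KO minus WT (orange), ChREBPβ KO minus WT (blue) and total ChREBP WT minus ChREBPβ WT (grey). Filled points passed an adjusted p of 0.05: 4 in orange, 0 in blue and 6 in grey.

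The liver markers differed between the WT groups as well, 11 of 12 being lower in total ChREBP WT, with a median of -4.74. With the liver marker mean of each array added to the fit, Pgd (0.64, adjusted p = 0.0117), Tkt (0.58, adjusted p = 0.0150), Taldo1 (0.53, adjusted p = 0.00244), Rpia and H6pd still passed between the WT groups, while G6pdx was at 0.25 (adjusted p = 0.346). Without the 5 total ChREBP WT arrays rich in liver transcripts, 4 members passed between the WT groups: Pgd (0.86, adjusted p = 0.00504), Tkt (0.72, adjusted p = 0.00611), Taldo1 (0.54, adjusted p = 0.00563) and Rpia (0.83, adjusted p = 0.0354). H6pd was then at -0.38 (adjusted p = 0.195) and G6pdx at 0.26 (adjusted p = 0.376), and the share of all genes called in that fit is not given here. In the total ChREBP line 2 of the 12 liver markers were lower and 1 was higher in KO, with a median of -2.01. In the same fit the KO differences there were -1.85 for Tkt (adjusted p = 1.08e-09), -0.40 for Taldo1 (adjusted p = 0.00121), -0.45 for Pgd (adjusted p = 0.0205) and 0.47 for Idh1 (adjusted p = 0.000897). After group means were subtracted, the correlation of the members with the liver marker mean over the 25 arrays, which share the normalisation, ran from -0.44 (Rpe) to 0.05 (Pgls). At a liver marker mean of 8.77 and 9.23, a pair of total ChREBP WT arrays overlapped total ChREBP KO in liver transcripts and had Tkt at 17.95 and 17.91. Both arrays also lay outside the range of total ChREBP KO for Taldo1, Pgd and Idh1.

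**Figure D4:**
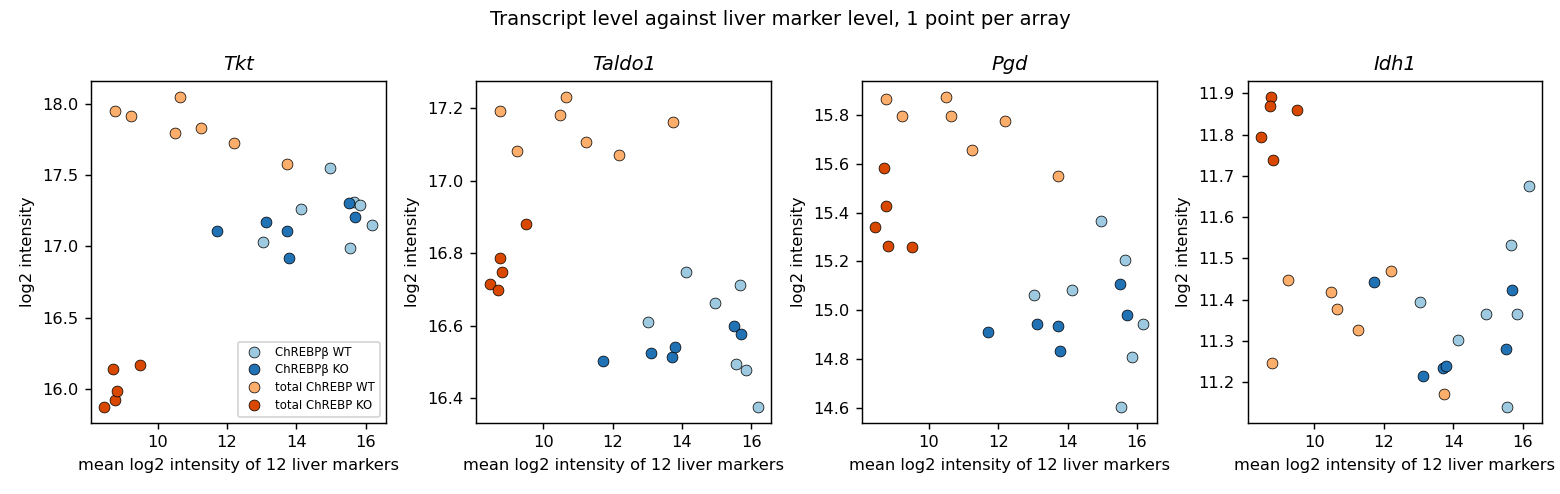
Level of Tkt, Taldo1, Pgd and Idh1 (y axis, log2 intensity, not starting at 0) against the mean log2 intensity of 12 liver markers (x axis), 1 point per array, coloured by group. In the range of 8.46 to 9.50 covered by total ChREBP KO, the 2 total ChREBP WT arrays lie apart from total ChREBP KO in each panel. Tkt is at 17.95 and 17.91 in them.

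Placed in order of their means, the 4 groups fell into different patterns. Tkt was highest in total ChREBP WT (17.84), followed by ChREBPβ WT (17.23) and ChREBPβ KO (17.14), which did not differ from each other, and lowest in total ChREBP KO (16.02), each remaining step between neighbours passing. Thus Tkt in total ChREBP KO lay below both ChREBPβ groups, by -1.22 against ChREBPβ WT (adjusted p = 3.24e-08) and -1.14 against ChREBPβ KO (adjusted p = 1.82e-07). Taldo1 and Pgd were also highest in total ChREBP WT, but total ChREBP KO came second and remained above ChREBPβ WT, by 0.18 for Taldo1 (adjusted p = 0.0381) and 0.35 for Pgd (adjusted p = 0.0138). Their fall in total ChREBP KO therefore did not reach the level of the ChREBPβ mice.

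Idh1 was highest in total ChREBP KO (11.83), and the other three groups, from 11.31 to 11.40, did not differ between neighbours. For G6pdx, total ChREBP KO and WT were both at 15.42. Total ChREBP WT lay above ChREBPβ KO (15.14, adjusted p = 0.0470) and ChREBPβ WT (15.12), and total ChREBP KO lay above ChREBPβ WT (0.30, adjusted p = 0.0367), while the difference between the KO groups, 0.27 (adjusted p = 0.0763), did not pass. H6pd had the opposite order, ChREBPβ WT (14.59) and KO (14.55) lying above total ChREBP WT (14.22, adjusted p = 0.0141) and KO (13.99). For Pgls, Rpia and Rpe no neighbours in the order passed, but groups farther apart did for Rpia and Rpe. Rpe in total ChREBP KO exceeded ChREBPβ WT by 0.28 (adjusted p = 0.00708), without overlap. The other Rpe probes passed for this pair as well, at 0.37 (adjusted p = 0.00814) and 0.29 (adjusted p = 0.00204). For Rpia, total ChREBP WT exceeded ChREBPβ WT by 0.64 (adjusted p = 0.00126) and ChREBPβ KO by 0.42 (adjusted p = 0.0289). For Pgls no pair of groups passed. In the cross-line pairs, 5 members passed between the KO groups (background 18.3%), 7 between total ChREBP KO and ChREBPβ WT (background 21.0%) and 6 between total ChREBP WT and ChREBPβ KO (background 24.4%).

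Lists of neighbouring genes were read beside the members. Of 8 genes that supply glucose 6-phosphate, 3 changed in total ChREBP KO, all lower. The background was 9.25% of all genes called in this comparison, 3.63% lower and 5.62% higher. Hk2, the insulin-responsive hexokinase, ranged from 12.57 to 12.97 in KO and 14.04 to 14.54 in WT, a difference of -1.54 (adjusted p = 2.95e-08). Slc2a4, the insulin-responsive glucose transporter GLUT4, ranged from 14.67 to 15.11 and 16.11 to 16.35, a difference of -1.40 (adjusted p = 1.32e-07). Gpi1, which converts glucose 6-phosphate to fructose 6-phosphate, differed by -0.26 (adjusted p = 0.0396). The list median was -0.12.

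Of 16 other genes of NADPH supply and NADP synthesis, 5 changed, against 9.25% of all genes. Me1, the cytosolic malic enzyme, was lower by -1.02 (adjusted p = 2.37e-06), with 16.62 to 17.02 in KO and 17.65 to 17.86 in WT. Slc25a1, the mitochondrial citrate carrier, was lower by -1.35 (adjusted p = 3.47e-06), with 14.21 to 14.54 and 15.42 to 16.05. Aldh1l1, a folate enzyme that makes NADPH, was higher by 0.61 (adjusted p = 0.000951), Idh2, the mitochondrial counterpart of Idh1, by 0.28 (adjusted p = 0.00754) and Me2, a mitochondrial malic enzyme, by 0.28 (adjusted p = 0.0463). Among the malic enzymes and the isocitrate dehydrogenases, then, Me1 fell while Me2, Idh1 and Idh2 rose.

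Of 13 other pentose and pentose phosphate genes tested, 4 changed, against 9.25% of all genes. Rbks, ribokinase, was lower (-0.37, adjusted p = 0.0435). Prps1 (0.49, adjusted p = 0.0415) and Prps1l3 (0.28, adjusted p = 0.00415), of the phosphoribosyl pyrophosphate synthetases that use ribose 5-phosphate, were higher. So was Pgm2 (0.29, adjusted p = 0.0140), listed by its name on the array, for which the enzyme meant by that name was not checked. Among the NADPH-using enzymes, Fasn, fatty acid synthase, was lower by -0.32 (adjusted p = 4.41e-05), but it ranked second brightest on all 7 total ChREBP WT arrays and from 9 to 12 in total ChREBP KO, and quantile normalisation sets the level of a probe by its rank, so the size of its difference is bounded by the top of the scale. Txnrd1, a thioredoxin reductase, was lower (-0.23, adjusted p = 0.0337), and Tm7sf2 (0.80, adjusted p = 0.0463), of cholesterol synthesis, was higher. The list of 21 enzymes held 4 calls in all, against 9.25% of all genes. Of 11 genes listed here as oxidative stress response, targets of NRF2, 0 passed, with 4 at an unadjusted p under 0.05. The share of all genes at that unadjusted threshold is not given here. This list does not hold all NRF2 targets, and Txnrd1 and the members were counted elsewhere, so the 0 covers only the listed genes.

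In ChREBPβ KO, 0 genes of these 5 lists passed, as did 0% of all genes. At an unadjusted p under 0.05 there were 5 of the 16 genes of NADPH supply and NADP synthesis and 2 of the 13 other pentose genes. In the other lists there were 2 of the 21 NADPH-using enzymes, 0 of the 8 glucose 6-phosphate genes and 2 of the 11 NRF2 targets. The share of all genes was 9.45%. The difference of the effects passed for Me1 (-0.99, adjusted p = 0.000455), Slc25a1 (-0.88, adjusted p = 0.0228), Aldh1l1 (0.93, adjusted p = 0.000738), Fasn (-0.28, adjusted p = 0.0113), Hk2 (-1.30, adjusted p = 7.71e-05) and Slc2a4 (-1.29, adjusted p = 8.58e-05). Between the WT groups, Me1 (1.02), Slc25a1 (1.21), Hk2 (0.96) and Slc2a4 (0.95) were higher in total ChREBP WT, as Tkt, Taldo1 and Pgd were.

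**Figure D5:**
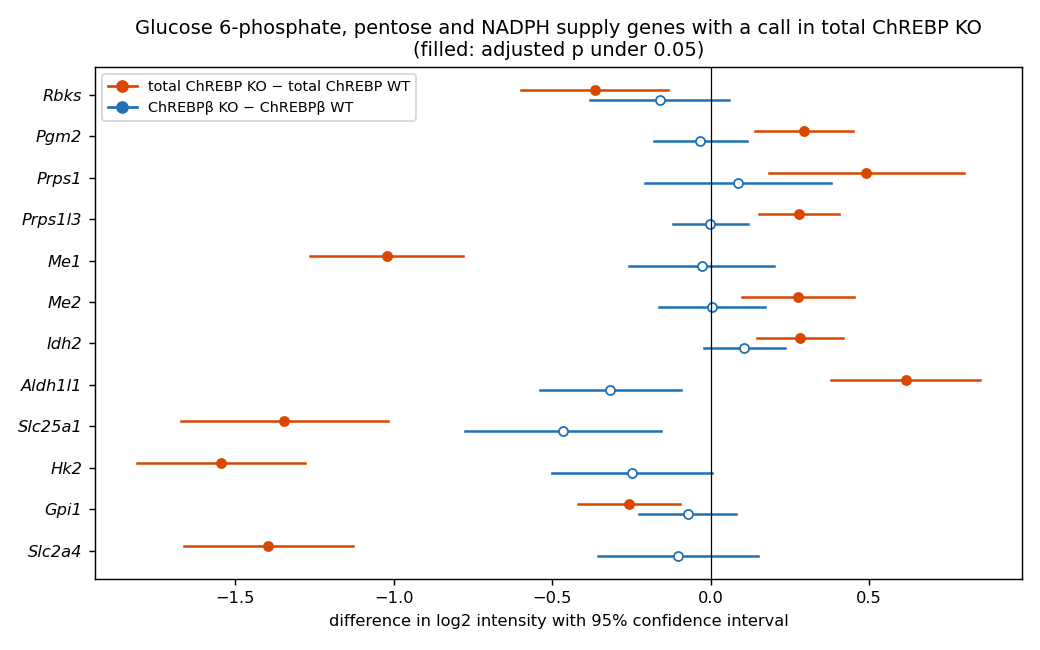
Difference in log2 intensity (x axis) with its 95% confidence interval for the 12 genes of glucose 6-phosphate supply, pentose metabolism and NADPH supply that passed in total ChREBP KO (y axis), for total ChREBP KO minus WT (orange) and ChREBPβ KO minus WT (blue). Filled points passed an adjusted p of 0.05. In orange Hk2 (-1.54), Slc2a4 (-1.40), Slc25a1 (-1.35) and Me1 (-1.02) lie farthest below 0, and no blue point is filled.

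The genes whose level followed each member most closely over the 25 arrays were taken by Pearson's r, as a description, since arrays of a group share its genotype and all share the normalisation. Tkt was closest to Acaca (0.98), acetyl-CoA carboxylase, and Elovl6 (0.98), a fatty acid elongase. Taldo1 was closest to DV060575 (0.98), named by its transcript accession on the array, and Alg9 (0.96). Pgd was closest to Mpc2 (0.95), a subunit of the mitochondrial pyruvate carrier, and Aspa (0.95), which frees acetate from N-acetylaspartate. Idh1 was closest to Acaa1a (0.88), a peroxisomal thiolase, and Csad (0.86), of taurine synthesis. H6pd (Ctsz, 0.93), Rpia (Leng1, 0.89), Rpe (Cnot4, 0.89) and Pgls (Nudcd3, 0.80) had other nearest genes, and Gm10731 (0.86) was among the 2 nearest to G6pdx.

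With group means subtracted, which leaves the variation among arrays of a group, wash batch included, Tkt was closest to Gm32062 (0.75). Neither Acaca nor Elovl6 was then among its 2 nearest. Taldo1 was then closest to Ppp1ca (0.83), Pgd to Gm9951 (0.83), Idh1 to Tor1a (0.83), H6pd to Slc39a13 (0.84) and G6pdx to Scgb2b2 (0.84). Leng1 (0.83) for Rpia, Cnot4 (0.85) for Rpe and Tm2d3 (0.83) for Pgls were among the nearest on both measures. Between the members themselves, the 36 pairs had a median r of 0.22 over all arrays, from -0.71 (Tkt and Idh1) to 0.91 (Pgd and Taldo1), and a median of 0.13 with group means subtracted, from -0.38 to 0.65 (Rpia and Rpe). With group means subtracted, Pgd and Taldo1 were at 0.44, and Tkt and Idh1 at 0.23, so the negative value of the Tkt and Idh1 pair over all arrays lay between the groups and not among arrays of a group.

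The promoters of the members were read from the RefSeq table of GRCm38.p6, 250 bases before to 50 after a start site, which held 11 windows for all 9 genes. The 250 bases before the start are shown for Tkt and Taldo1, the non-oxidative enzymes that changed, 5′ to 3′ on the plus strand, with GC boxes (GGGCGG on either strand) and CCAAT boxes (CCAAT on either strand) in capitals. Tkt lies at chr14:30548881-30549130 and Taldo1 at chr7:141391910-141392159.
Tkt: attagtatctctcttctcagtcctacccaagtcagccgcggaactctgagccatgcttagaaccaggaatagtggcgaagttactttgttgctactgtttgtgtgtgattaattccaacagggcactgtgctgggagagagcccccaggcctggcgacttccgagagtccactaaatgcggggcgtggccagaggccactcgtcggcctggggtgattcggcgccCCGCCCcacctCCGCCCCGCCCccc
Taldo1: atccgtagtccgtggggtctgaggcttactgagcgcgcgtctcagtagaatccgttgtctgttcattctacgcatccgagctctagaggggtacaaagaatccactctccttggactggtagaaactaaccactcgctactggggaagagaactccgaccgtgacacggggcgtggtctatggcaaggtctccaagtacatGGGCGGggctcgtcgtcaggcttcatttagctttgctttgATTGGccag
The Tkt stretch holds 3 GC boxes (5 in the whole window) and no CCAAT box at 59.6% G and C, and the Taldo1 stretch holds 1 GC box and 1 CCAAT box at 54.4%. Over the members, 9 of 11 windows held a GC box, against 35.7% of all 32851 windows, and 5 held a CCAAT box, against 37.4%. The E-box CACGTG, on which ChREBP sites are built, was in 0 member windows and 7.15% of all, and the full carbohydrate response element consensus in 0 and 0.119%. The antioxidant response core (TGACNNNGC on either strand) was in the G6pdx window and 1 Pgd window, against 12.4% of all. These matches describe letters in short windows and say nothing of binding, here or farther from the gene.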

How the data were processed

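Total RNA of 25 pgWAT samples was labelled with Cy3 and hybridised to 1-colour Agilent arrays, 1 per mouse, scanned and read with Feature Extraction 10.10.1.1. The deposited series table holds log2 intensities of 40561 probes that the authors filtered and quantile normalised with preprocessCore, after reading the median spot intensity into limma, from the deposited scanner files (59305 spots each, used for detection, probe names and alternatives). Table and scanner values correlated at 0.9998 or more, column medians lay between 7.957 and 7.962, and 0 spots of the members were saturated or empty. Between 73.0% and 77.9% of spots per array were well above background, and the number of arrays limits the precision. Batches were the 4 wash batches of the labels, each holding all 4 groups.

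Groups were taken from the sample titles. limma 3.58.1 in R 4.3.3 was fitted over all probes and all 25 arrays with group and wash batch as terms (residual degrees of freedom 18), and p-values were adjusted by Benjamini-Hochberg over all probes. Every adjusted p in the report is from this fit or a named alternative of it. A gene was read by its brightest probe, by the mean of the 25 arrays. Named genes were the 9 members, for each other list up to 6 genes that passed by size of difference, Mlxipl, and the 2 genes most correlated with each member. Members, lists and tests were chosen with earlier results of these data known. Probe positions are mm9, as on the arrays, and promoters are RefSeq on GRCm38.p6. Some genes of the lists and of the correlations are not reported here. Fits were tested on simulated data. Alternatives were other signals, background correction, filters, covariates, weights, probe rules and leaving out arrays. The fit without the WT arrays rich in liver transcripts was chosen after seeing the data.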

Additional observations from a re-analysis of the deposited data

Results flagged for a closer look

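The difference between the effects of total ChREBP and ChREBPβ deletion passed for Tkt (-1.75), Idh1 (0.55) and Taldo1 (-0.34), each by the test of the difference itself. In the levels of the members, 4 of 36 gene and group combinations held 1 array far from the rest by Dixon's criterion, which chance meets about 1 time in 20. G6pdx read 15.61 in ChREBPβ WT replicate 2 (next highest 15.17) and 15.40 in ChREBPβ KO replicate 2 (next highest 15.16). Rpia read 10.90 (next lowest 11.29) and Rpe 11.12 (next lowest 11.44) in total ChREBP WT replicate 2. This array also had the highest liver marker mean (13.74) and epididymis marker mean (10.14) of its group, and their part in these readings was not tested.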

How the results depend on the processing

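Across the alternatives run, the number of the 9 members called was 2 to 6 in the total ChREBP line (4 to 5 when 1 array was left out), 0 in the ChREBPβ line in all of them, from 1 to 4 for the difference of the effects (2 to 3) and from 4 to 8 between the WT groups (5 to 6). The low values of 2, 1 and 4 came without the 5 total ChREBP WT arrays rich in liver transcripts, a fit that leaves 2 WT arrays and was chosen after seeing the data. Its share of all genes called is not given here. The replicate numbers did not pair the mice (same-number pairs correlated from -0.45 to 0.41, 2 of 9 above 0.1), and the replicate block gave 4, 0, 2 and 6 calls, Taldo1 losing the difference of the effects (-0.34, adjusted p = 0.101). Taldo1 also lost it with the processed signal (adjusted p = 0.0853) and with the mean over probes (adjusted p = 0.0784). In the total ChREBP line, Rpe passed with the processed signal (adjusted p = 0.0414), normexp (0.0420), an intensity trend (0.0463) and array weights (0.0153), and H6pd with array weights (0.0195) and only the compared groups (0.0461). Differences near 0 changed sign. G6pdx in the total ChREBP line was at -0.0721 with the processed signal, -0.0434 with the replicate block, -0.0186 with the liver covariate and -0.0690 to 0.0382 without single arrays. Without single arrays G6pdx was at -0.0283 to 0.126 in the ChREBPβ line and -0.112 to 0.0373 for the difference of the effects (0.00708 without the liver-rich arrays), and H6pd at -0.119 to 0.0310 in the ChREBPβ line. Rpe was at -0.00329 (liver covariate), -0.108 (without the liver-rich arrays) and -0.0214 to 0.0607 (single arrays) for the difference of the effects, and -0.0803 between the WT groups with the liver covariate. Pgd in the ChREBPβ line was at 0.0157 with the mean over probes and -0.121 to 0.0119 without single arrays. Between the WT groups, G6pdx did not pass without the filter (adjusted p = 0.0639) or with only the compared groups (adjusted p = 0.0540), H6pd not with the processed signal (-0.26, adjusted p = 0.0591), and Pgls passed with the processed signal (0.33, adjusted p = 0.00786) and with the mean over probes (0.21, adjusted p = 0.0433). The cause of these changes was not tested.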
